A study of Mus musculus with 4 samples.

Results

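The Gata2 gene encodes a zinc finger transcription factor of blood stem and progenitor cells, and the sequence around it was examined here for binding of Gata2 itself and of the proteins Ldb1 and Tal1. The stretch is chr6:87950000-88350000 of the mouse build mm8, 400 kb that are taken to hold Gata2 and its upstream sequence. The place of the gene in this build is approximate, so no site below is assigned to an exon, an intron or a promoter. The stretch held 44 merged regions with at least 1 of the 3 proteins, of 47736 in the genome. A merged region is the union of overlapping enriched regions of the 3 proteins, and the 44 are numbered in order along the chromosome.

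The study asked what Ldb1 does in maintaining haematopoietic stem cells. All 4 libraries came from freshly isolated mouse bone marrow depleted of Lin+ cells, which carry markers of mature blood lineages, with magnetic beads. Such Lin- cells are a mixture of progenitors in which stem cells are a minority, and the labels give no strain, age, genotype or treatment of the animals. Chromatin was immunoprecipitated with anti-Ldb1, anti-Scl/Tal1, anti-Gata2 or control IgG, with 1 library per antibody. Neither animals nor immunoprecipitations were replicated, so the intervals and tests below reflect the counting of tags and no other variation. After repeated tags (aligned reads) were counted once per position and strand, the libraries held 4056964 Ldb1, 9091843 Tal1, 6059558 Gata2 and 3614604 IgG tags. Tal1 tags were 36 bp long and the others 25 bp, and tags without a mismatch made up 74.9% of the deposited Ldb1 tags, 90.9% of Tal1, 95.2% of Gata2 and 63.5% of IgG. No expression was measured, so the labelled cell type was not checked against markers.

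Gata2 binds GATA motifs in DNA. Tal1, a basic helix-loop-helix protein also called Scl, binds E-box motifs together with a partner helix-loop-helix protein. Ldb1 binds no DNA itself and joins LIM domain proteins, Tal1 and GATA factors into a complex. The Gata2 gene is known from other work to be controlled by elements upstream of it and within an intron that GATA factors and Tal1 occupy, and Gata2 is known to bind its own gene.

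RefSeq lists a distal and a proximal start of Gata2, 4773 bp apart on the + strand of GRCm38.p6. The 250 bases before each start are shown because this gene gives the stretch its name. Their coordinates belong to GRCm38.p6, are not on the mm8 scale of the tags, and give no distance to any region. Capitals were reserved for GATA motifs (AGATAA and its variant AGATAG, or TGATAA and its variant TGATAG, on either strand) and for E-boxes (CANNTG), and a match of one kind was allowed to overlap one of the other.
Gata2 start 1, chr6:88193641-88193890: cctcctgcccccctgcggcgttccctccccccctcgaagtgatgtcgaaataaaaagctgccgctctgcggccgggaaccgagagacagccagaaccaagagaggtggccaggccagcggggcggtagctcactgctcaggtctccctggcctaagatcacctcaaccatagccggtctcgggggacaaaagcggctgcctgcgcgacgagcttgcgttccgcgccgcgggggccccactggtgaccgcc
Gata2 start 2, chr6:88198414-88198663: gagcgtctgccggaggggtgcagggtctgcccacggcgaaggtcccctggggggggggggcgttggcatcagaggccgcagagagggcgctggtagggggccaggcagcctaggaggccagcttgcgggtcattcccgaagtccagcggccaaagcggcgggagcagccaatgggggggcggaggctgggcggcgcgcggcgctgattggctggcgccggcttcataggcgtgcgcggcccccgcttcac

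Neither sequence held a match of either motif, so both are printed in lower case throughout. A GATA match was present in 26.5% and an E-box match in 66.2% of the 32851 RefSeq promoters of the same length. The absence of a match says only that these letters are not in these windows. Both sequences were rich in G and C, at 67.2% and 74% against a median of 52.4% over the promoters. In the same assembly the nearest protein-coding genes on one side of Gata2 are Rpn1, Rab7 and H1f10, and those on the other are Dnajb8 and Eefsec. How many of them lie within the mm8 stretch was not determined.

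The first comparison, of each antibody with IgG, asked where the proteins were enriched. All 3 proteins were enriched over the stretch, in narrow peaks that stood far above IgG and in a smaller excess between the peaks. The stretch held 1068 Ldb1 tags, or 263 RPM (tags per 1000000 tags of the library), and 3039 Tal1 tags, 334 RPM. It held 1868 Gata2 tags, 308 RPM, and 551 IgG tags, 152 RPM. Tag density over IgG was 1.73 times for Ldb1 (95% exact conditional binomial interval 1.56 to 1.92), 2.19 times for Tal1 (2.002 to 2.405) and 2.02 times for Gata2 (1.84 to 2.23). IgG itself was at 0.914 times its genome mean, whereas Ldb1 was at 1.58 times, Tal1 at 2.003 times and Gata2 at 1.85 times theirs.

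The merged regions covered 33500 bp, 8.38% of the stretch, against 1.48% of the genome. They held 35.3% of the Ldb1 tags of the stretch, 38.9% of the Tal1 tags and 35.7% of the Gata2 tags, and 9.45% of the IgG tags. The corresponding shares over the whole genome were 8.78%, 13.3%, 8.67% and 1.43%. Outside the regions, with tags outside regions as the scale, density over IgG was still 1.34 times for Ldb1 (1.19 to 1.502), 1.68 times for Tal1 (1.52 to 1.86) and 1.55 times for Gata2 (1.40 to 1.73). The excess was thus not limited to the called regions, and it includes windows that just missed the threshold.

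Enrichment was called in windows of 400 bp, with 0.01 as the highest false discovery rate over the genome and 4-fold over the expected tags as the lowest fold. Of the windows with a tag in the stretch, 59 of 2014 were called for Ldb1, 2.93% against 0.473% of the genome. For Tal1, 139 of 3316 were called, 4.19% against 0.971%. For Gata2, 105 of 2890 were called, 3.63% against 0.584%. The called share was above the genome share for each protein. With IgG put in place of the factor and the factor in place of IgG, no window of the stretch gave a region: the count was 0 in all 3 exchanges, which called 27, 242 and 188 regions over the genome. With so few exchanged regions over 6410 tiles of 400 kb, 0 was the likely count for almost any stretch. The 0 is therefore no separate support for the calls.

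**Figure D1:**
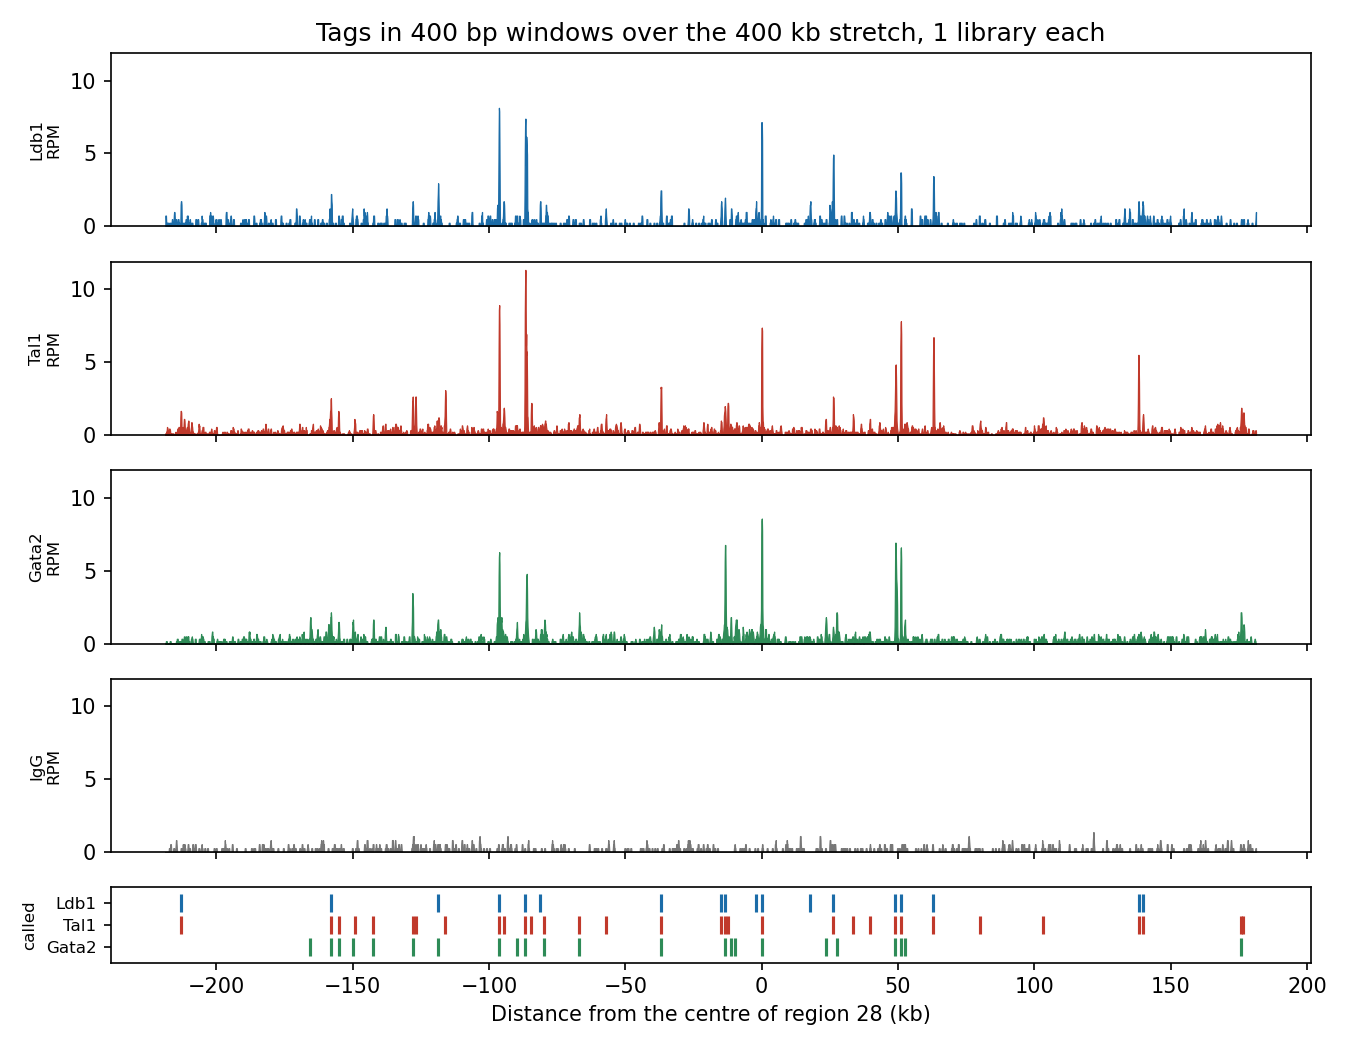
RPM (tags per 1000000 tags of the library) in 400 bp windows over the 400 kb stretch in each of the 4 libraries (vertical axes, same scale), against the distance from the centre of region 28 in kb, with ticks in the lowest panel at the called regions of each protein. Ldb1, Tal1 and Gata2 all have tall peaks at regions 12, 15 and 28, whereas Gata2 leads at region 23 and Tal1 at regions 38 and 41, and the IgG track has no such peak.

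Joined windows gave 18 Ldb1 regions, 32 Tal1 regions and 24 Gata2 regions in the stretch, 1 Gata2 region more than the 23 merged regions with Gata2 because region 3 held a pair of them. The fold of a region, which is that of its best window over the expected tags, was used to call it and is given as a description. In the stretch Ldb1 had a median of 11.5 (range 6.68 to 44.3), against 11.8 over the genome. Tal1 had 8.57 (4.17 to 67.9) against 7.91, and Gata2 had 9.89 (4.97 to 40.5) against 8.90. The medians were close to those of the genome, but the same threshold cuts off weak windows in both. Similar medians therefore say little about typical strength. The strongest regions of the stretch were high in the ranking of the genome. Tal1 at region 15 lay above 98.5% of Tal1 regions, and Gata2 at regions 23, 28 and 35 lay above 99.1%, 99.0% and 98.9% of Gata2 regions. The highest Ldb1 fold, at region 15, lay above 94.2% of Ldb1 regions.

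Regions were dense in the stretch. Among 6410 tiles of 400 kb over the genome, the median tile held 3 merged regions and the mean was 7.43. The stretch held 44, and 44 tiles, 0.686%, held as many or more. Its 8 regions with all 3 proteins compare with a median of 0 and a mean of 0.992, and 103 tiles, 1.61%, held as many or more. By single protein, 27 tiles held at least 18 merged regions with Ldb1, 91 held at least 32 with Tal1 and 39 held at least 23 with Gata2. The stretch was chosen by position around a known target of these proteins and not at random, so these ranks are descriptions without a test.

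**Figure D2:**
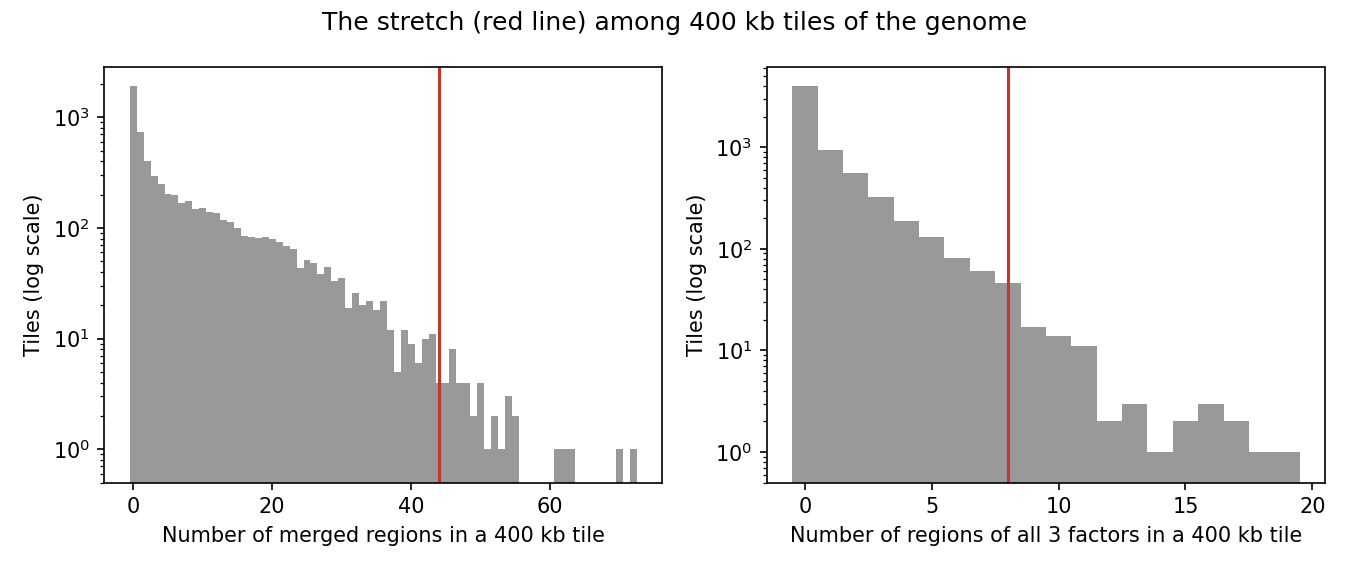
Histograms of the number of merged regions (left) and of regions with all 3 proteins (right) in each of 6410 tiles of 400 kb, with the number of tiles on a log scale. The red lines mark the stretch, at 44 and at 8, in the upper tail of both.

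Of the 44 merged regions, 8 had all 3 proteins, 13 had a pair and 23 had a single one. The share with all 3 was 18.2%, against 13.3% over the genome. Ldb1 with Tal1 made up 6 regions (13.6% against 9.24%), Tal1 with Gata2 6 (13.6% against 13.4%) and Ldb1 with Gata2 1 (2.27% against 0.752%). Tal1 alone made up 12 (27.3% against 40.3%), Gata2 alone 8 (18.2% against 18.1%) and Ldb1 alone 3 (6.82% against 4.82%). These shares are descriptions without a test. Widths ran from 400 to 2100 bp with a median of 700 bp, and neighbouring centres lay 678 to 47435 bp apart with a median of 5254 bp.

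The 8 regions with all 3 proteins are described next, with tags in the 400 bp around the centre, which is the summit of the protein with the highest fold. At 6 of the 8 the IgG library had 0 tags there, and at regions 15 and 28 it had 1. For 0 IgG tags the exact Poisson interval reached up to 1.02 RPM, and the floor of 3 tags used below is 0.830 RPM. Summed over the 8, there were 141 Ldb1, 425 Tal1 and 238 Gata2 tags and 2 IgG tags, that is 26.0, 35.0 and 29.4 times the genome mean of each factor and 0.414 times that of IgG. The ratio to IgG was 62.8 for Ldb1 (17.1 to 524), 84.5 for Tal1 (23.2 to 700) and 71.0 for Gata2 (19.4 to 590), wide intervals that rest on 2 IgG tags. The regions were called on these same tags over IgG, so high factor counts and low IgG counts are built into their selection. These values are therefore a description and no separate support for the calls. Forward tags lay to the left of each library's own summits and reverse tags to the right. Those summits were placed on tags already moved by 53 to 56 bp towards the fragment middle. Offsets near that size thus largely follow from the shift and are no separate sign of a site. The median offsets of the 2 strands were -49 and 56 bp in the Ldb1 library, -55.5 and 50 bp in that of Tal1 and -50 and 53 bp in that of Gata2.

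Region 28, chr6:88168101-88169300, had the largest lowest-of-3 fold of the stretch as called here. It held 29 Ldb1, 67 Tal1, 51 Gata2 and 1 IgG tags, or 7.15 (4.79 to 10.3), 7.37 (5.71 to 9.36), 8.42 (6.27 to 11.1) and 0.277 RPM. The folds were 32.3, 33.3 and 38.8, and the lowest of these was above the lowest of 98.1% of the regions with all 3 proteins in the genome. This rank belongs to the settings used: with tags without a mismatch only, the lowest fold was 21.4 at region 28, 31.5 at region 12 and 29.8 at region 15, and with repeated tags kept it was 25.1, 26.8 and 28.9. With libraries of equal size region 28 also ranked below both, at 28.75 against 37.5 and 35.8. The 3 summits, at 88168846, 88168860 and 88168844, lay within 16 bp of each other. Scaled by library totals, no pair of proteins passed the test of a difference here: Ldb1 over Tal1 was 0.970 (0.605 to 1.52), Tal1 over Gata2 0.876 (0.599 to 1.29) and Ldb1 over Gata2 0.849 (0.519 to 1.37). With the median ratio over all merged regions as the scale, Tal1 was called below Gata2 at this region.

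Region 12, chr6:88071501-88073600, was the widest at 2100 bp and held a similar balance. Its tags were 32 Ldb1, 81 Tal1, 38 Gata2 and 0 IgG, or 7.89, 8.91 and 6.27 RPM for the factors. With 3 tags taken as the IgG floor these were 9.504, 10.7 and 7.56 times IgG, leaving aside the counting error of the factor. The folds were 36.8, 40.3 and 28.3. Summits lay 40 to 85 bp apart, and none of the 3 pairs passed the test of a difference.

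Region 15, chr6:88081701-88083100, held a pair of peaks rather than 1. At the left one, the Tal1 summit at 88082165, there were 30 Ldb1, 100 Tal1, 9 Gata2 and 1 IgG tags in 400 bp. At the right one, the Ldb1 summit at 88082616, 451 bp away, there were 23, 52, 27 and 0. Tal1 and Ldb1 were therefore high at both peaks, and Gata2 mainly at the right one. Within 100 bp of the left summit there were 70 Tal1 and 5 Gata2 tags, and within 100 bp of the right one 43 and 21. The Gata2 summit, 88082609, lay 7 bp from that of Ldb1. The Ldb1 fold of 44.3 and the Tal1 fold of 67.9 were the highest of the stretch for these proteins, and the Gata2 fold was 27.7.

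Region 23, chr6:88154801-88155900, was led by Gata2. It held 7 Ldb1, 16 Tal1, 42 Gata2 and 0 IgG tags, or 1.73 (0.694 to 3.56), 1.76 (1.01 to 2.86) and 6.93 (4.995 to 9.37) RPM for the factors. The Gata2 fold of 40.5 was the highest of the stretch, whereas the Ldb1 fold was 11.8 and the Tal1 fold 11.9. The summits were spread, with Ldb1 156 bp and Tal1 337 bp from that of Gata2 at 88155477. With windows of 800 bp in place of 400 bp the Ldb1 call was lost at this region, with a fold of 5.91.

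Regions 35, chr6:88217301-88218700, and 36, chr6:88219401-88220300, lay next to each other with centres 1947 bp apart. Region 35 held 9 Ldb1, 43 Tal1, 42 Gata2 and 0 IgG tags, with folds of 13.1, 25.7 and 36.8. Region 36 held 15, 71, 39 and 0, with folds of 16.7, 35.3 and 29.8. In both, Ldb1 was the lowest of the 3 on the scale of RPM. The summits of region 36 lay within 11 bp of each other, and those of region 35 within 91 bp. The Gata2 profile of region 35 also had another, smaller crest to the right of the centre, seen in the plot of tags around the 8 centres.

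Regions 3 and 21 were the weakest of the 8. Region 3, chr6:88009701-88011300, held 9 Ldb1, 17 Tal1, 11 Gata2 and 0 IgG tags, with folds of 11.1, 12.7 and 10.8 and with summits 72 to 198 bp apart. Region 21, chr6:88131501-88132300, held 10, 30, 6 and 0, with folds of 14.8, 19.8 and 7.91 and with summits within 29 bp. Gata2 at region 21 was called from 8 tags in its best window, and this call was lost under 4 of the other settings tried: a false discovery rate of 0.001, at least 8-fold, tags not moved towards the fragment centre and equal library sizes. Region 21 then counted as a region of Ldb1 and Tal1.

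**Figure D3:**
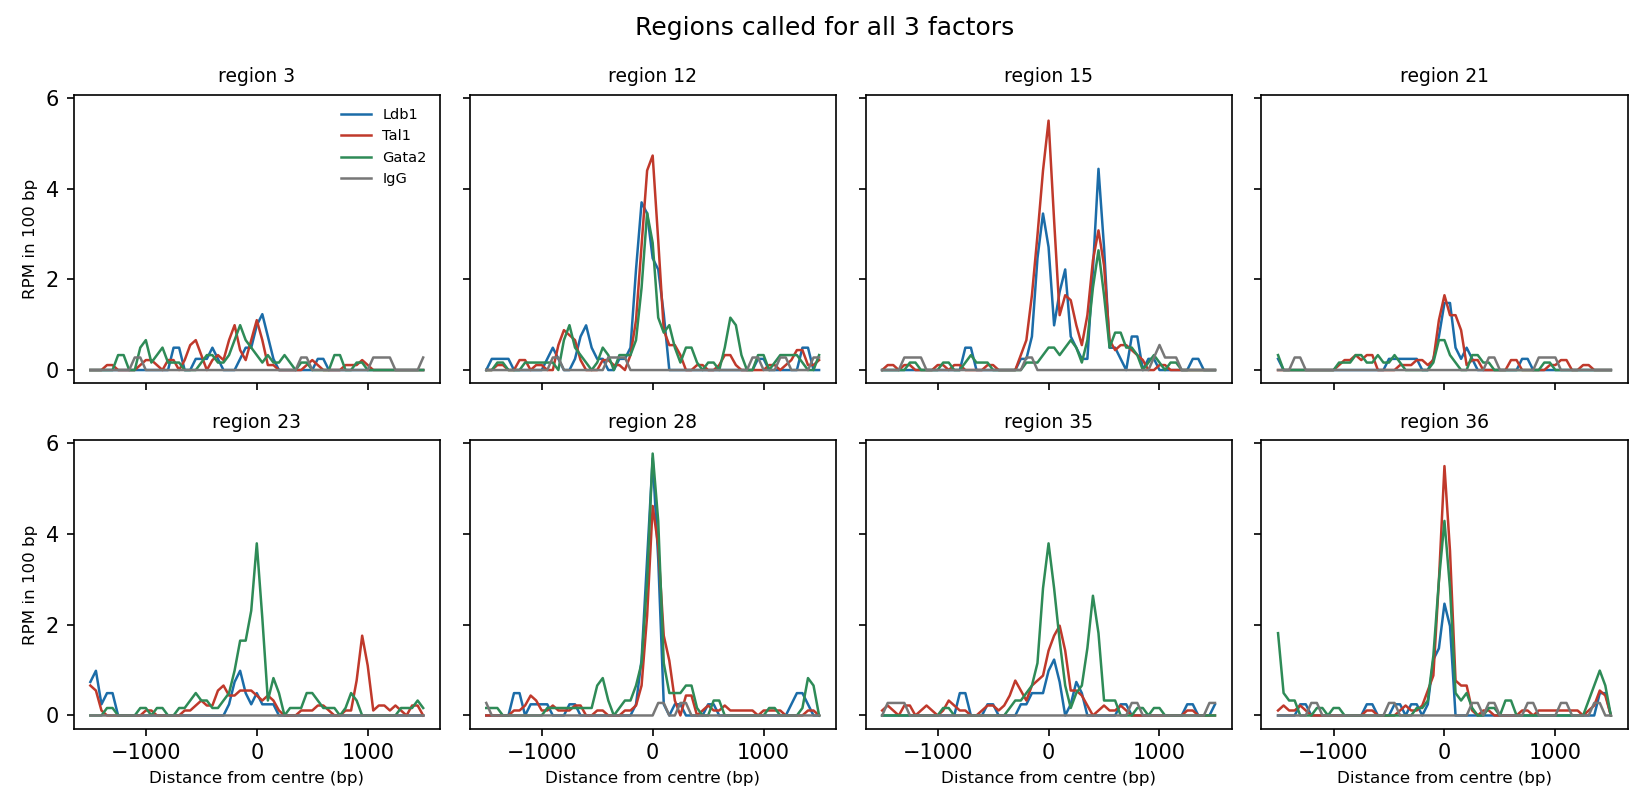
RPM in sliding windows of 100 bp (vertical axis) against the distance in bp from the centre of each of the 8 regions with all 3 proteins, 1 line per library. The lines peak together at regions 12, 28 and 36, Gata2 is the highest line at region 23, and at region 15 Gata2 peaks only at the right-hand crest.

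The peaks stood out with and without repeated tags. As deposited, with repeats, the counts were 47 Ldb1, 105 Tal1, 68 Gata2 and 1 IgG at region 28 and 48, 150, 10 and 1 at region 15. Both strands contributed: at region 28 there were 17 forward and 12 reverse Ldb1 tags, 30 and 37 Tal1 tags and 19 and 32 Gata2 tags. The exception was Ldb1 at region 23, with 6 forward tags and 1 reverse tag. All 8 regions still had all 3 proteins with repeats kept, with tags without a mismatch only, with windows of 200 bp and with the genome mean alone as the expectation.

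The 6 regions of Ldb1 and Tal1 without a Gata2 call included a pair with tall Tal1 peaks. Region 38, chr6:88231401-88232300, held 14 Ldb1, 60 Tal1, 0 Gata2 and 0 IgG tags, with a Tal1 fold of 30.3 and an Ldb1 fold of 15.6. Region 41, chr6:88306601-88307500, held 7, 47, 4 and 0, with folds of 33.0 for Tal1 and 10.3 for Ldb1. The Tal1 peak at region 38 was as tall as that at region 28 within their intervals, at 6.60 (5.04 to 8.49) against 7.37 (5.71 to 9.36) RPM. Gata2 had no tag at region 38, where its exact Poisson interval reached up to 0.609 RPM.

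The other 4 were lower in Tal1. Region 31, chr6:88194401-88195500, had the most Ldb1 of the 6, with 20 Ldb1, 25 Tal1, 6 Gata2 and 1 IgG tags and folds of 14.8 and 7.95. Region 1, chr6:87955501-87956200, held 7, 15, 1 and 1, and region 22, chr6:88153701-88154200, held 6, 8, 1 and 0. Region 42, chr6:88308301-88309000, held 6, 13, 0 and 0. At regions 22, 31 and 42 the Ldb1 fold was above the Tal1 fold. Scaled by library totals, Ldb1 over Tal1 was 1.68 (0.481 to 5.52), 1.79 (0.944 to 3.36) and 1.03 (0.322 to 2.92) there. None of these passed the test of a difference. With the median ratio over all merged regions as the scale, region 31 was called. The centre of region 42 lay 1515 bp from that of region 41. Over the 6 together, Gata2 was at 1.98 times its genome mean (1.02 to 3.46), against 14.8 times for Ldb1 and 18.5 times for Tal1. The missing Gata2 call is part of how these regions were grouped, so the low Gata2 level is a description.

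The 6 regions of Tal1 and Gata2 were all modest, with Tal1 folds of 4.17 to 8.57 and Gata2 folds of 6.21 to 12.9. The one with most tags was region 8, chr6:88040501-88041100, with 7 Ldb1, 23 Tal1, 20 Gata2 and 2 IgG tags and with the Tal1 and Gata2 summits 1 bp apart. Region 4, chr6:88013301-88014000, held 3, 14, 8 and 1, and region 7, chr6:88026201-88026700, held 3, 13, 10 and 2. Region 18, chr6:88088901-88089700, held 1, 8, 8 and 1. Region 19, chr6:88101601-88102300, held 1, 13, 11 and 0, and region 43, chr6:88344301-88345100, held 2, 17, 13 and 0. Ldb1 had 1 to 7 tags at these regions, 4.19 times its genome mean over the 6 together (2.44 to 6.70), and IgG had 0 to 2. The single region of Ldb1 and Gata2, region 10 at chr6:88049901-88050500, held 10 Ldb1, 7 Tal1, 11 Gata2 and 2 IgG tags, with folds of 6.68 for Ldb1 and 4.97 for Gata2, both at the lower end of the range for that protein in the stretch.

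**Figure D4:**
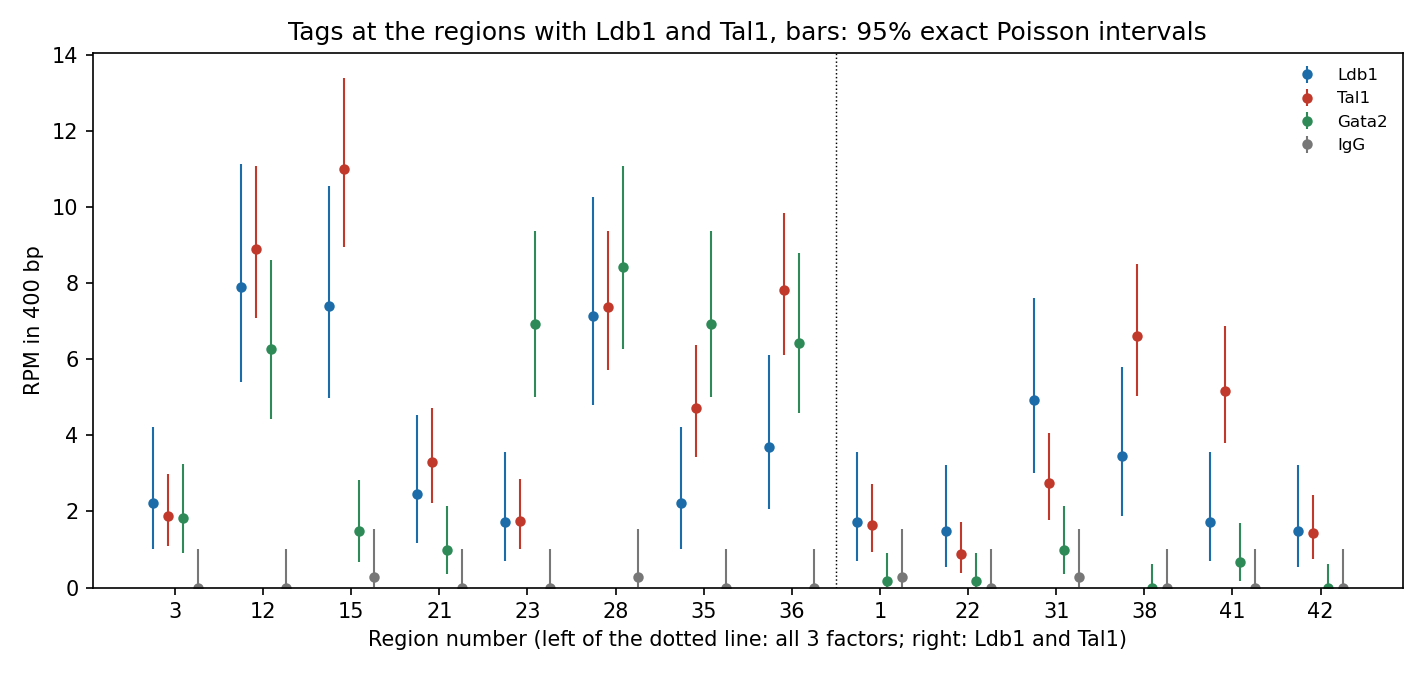
RPM in 400 bp around the centre (vertical axis) of each region with both Ldb1 and Tal1 (horizontal axis, region number), 1 point per library with its 95% exact Poisson interval, the 8 regions with all 3 proteins on the left of the dotted line and the 6 without a Gata2 call on the right. Tal1 stands at 6.60 RPM at region 38 and 5.17 RPM at region 41, with Gata2 at 0 and 0.660 RPM.

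Most regions of 1 protein were low in tags. The 12 of Tal1 had 8 to 27 Tal1 tags and folds of 4.64 to 13.2. The 27 Tal1 tags were at region 11, chr6:88052401-88053200, with 0 Ldb1, 1 Gata2 and 2 IgG tags and a fold of 6.96. Regions 3 and 23, with all 3 proteins, had fewer Tal1 tags, 17 and 16. The highest fold was shared by region 16, chr6:88084001-88084800, with 1 Ldb1, 19 Tal1, 0 Gata2 and 0 IgG tags, and region 24, chr6:88156101-88156800, with 0, 20, 3 and 0. Both lay beside a region with all 3 proteins, 2195 bp from the centre of region 15 and 951 bp from that of region 23. The 8 of Gata2 had 6 to 13 Gata2 tags and folds of 4.97 to 11.2, with the highest at region 32, chr6:88196001-88196700, which held 2 Ldb1, 5 Tal1, 13 Gata2 and 0 IgG tags. The 3 of Ldb1 had 6 to 7 Ldb1 tags and shared a fold of 10.3. They were region 17, chr6:88087401-88087900, region 27, chr6:88166601-88167000, and region 29, chr6:88186501-88186900.

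The windows that just missed the threshold were much like the weakest that passed. For Ldb1 the nearest were chr6:88089501-88089900, with 6 tags and 8.86-fold at an adjusted p of 0.0132 by the Poisson test, and chr6:88074101-88074500, with 7 tags and 6.50-fold. For Tal1 they were chr6:88192101-88192500, with 10 tags and 4.52-fold at an adjusted p of 0.0104, and chr6:88097801-88098200, with 8 tags and 5.27-fold. For Gata2 they were chr6:88129101-88129500, with 7 tags and 6.92-fold at an adjusted p of 0.0124, and chr6:88161701-88162100, with 7 tags and 5.22-fold. The first Ldb1 window overlapped region 18, the second lay in region 13, and the first Tal1 window lay in region 30. Those regions were grouped as lacking that protein, so their grouping hangs on a near miss. The other windows lay in no merged region. The best windows of the called regions held at least 7 Ldb1, 9 Tal1 and 8 Gata2 tags. A protein without a call at a weak region is therefore one not detected at this depth, and the depth differs between libraries.

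The second comparison, between the factor libraries, asked where the balance of the 3 proteins differed among the 44 regions. Tags in 400 bp around each centre were compared with an exact conditional binomial test, two-sided and adjusted over the 47736 merged regions of the genome. The antibodies differ in how well they precipitate, so a ratio is read against the other regions and not as a ratio of proteins. Tal1 was above Gata2 at 10 of the 44 regions, against 22.9% of all merged regions, and below it at 4, against 9.11%. Ldb1 was above Gata2 at 4, against 7.25%, and below it at 2, against 5.1%. Ldb1 was above Tal1 at 1, against 1.79%, and below it at 3, against 6.35%. As shares of the 44 these are 22.7%, 9.09%, 9.09%, 4.55%, 2.27% and 6.82%, each close to that of the genome, so the stretch as a whole did not stand out in the balance of the proteins. With the median ratio over all regions as the scale in place of library totals, the split of Tal1 against Gata2 was 7 above and 9 below, and that of Ldb1 against Tal1 was 3 above and 1 below. On that scale 12.6% of all merged regions were called above and 19.1% below for Tal1 against Gata2, and 6.76% and 1.02% for Ldb1 against Tal1.

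At individual regions the balance ran in opposite directions. Both proteins of a pair were called at regions 15, 21, 23 and 35, where the difference does not come from a missing call. At region 15 Tal1 was 7.41 times Gata2 (3.75 to 16.7) around the Tal1 summit, with an adjusted p of 9.24e-12 by the exact conditional binomial test, and at region 21 it was 3.33 times (1.36 to 9.79, adjusted p 0.0157). At region 23 it was 0.254 times Gata2 (0.133 to 0.461, adjusted p 9.82e-06 by the same exact test). Ldb1 there was 0.249 times Gata2 (0.0944 to 0.559, adjusted p 0.00252), and at region 35 it was 0.320 times Gata2 (0.137 to 0.667, adjusted p 0.0123). Gata2 was thus in excess over both of the others at region 23 and over Ldb1 at region 35.

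The centre is set by the protein with the highest fold, which favours that protein. With each library counted in its own fullest window of the region, Tal1 against Gata2 at regions 15 and 23 and Ldb1 against Gata2 at regions 23 and 35 were still called. Tal1 over Gata2 at region 21 was not called in that way, nor was Ldb1 over Gata2 at region 15, which was 4.98 times (2.30 to 11.9, adjusted p 0.000138 by the exact test) at the Tal1 summit.

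The other calls fell at regions where 1 protein of the pair had no called region, so that the calling itself favours a difference. Tal1 exceeded Gata2 at regions 1, 9, 11, 16, 24, 38, 41 and 42. At region 38, with no Gata2 tag, the exact interval of Tal1 over Gata2 had a lower limit of 10.5 (adjusted p 3.46e-12 by the exact test). With 3 tags taken as the Gata2 floor the ratio there was 13.3, leaving aside the counting error of Tal1. At region 41 Tal1 was 7.83 times Gata2 (2.86 to 29.9, adjusted p 6.16e-06 by the same test). Tal1 was below Gata2 at regions 2, 5 and 32. Ldb1 exceeded Gata2 at region 31, by 4.98 times (1.93 to 15.2, adjusted p 0.00362 by the exact test), and at regions 38 and 42. Ldb1 exceeded Tal1 at region 27, with 6 tags against 0, and was below it at regions 11, 24 and 41. The call at region 27 was lost with 800 bp around the centre and with the fullest window of each library. Tags without a mismatch only lost it too, along with the calls at regions 24 and 41. With the median ratio over all merged regions as the scale, Ldb1 stayed below Tal1 only at region 11. Tal1 above Gata2 was then lost at regions 1, 21 and 24. It was lost at regions 24 and 42 with 800 bp and with the fullest window, as was Ldb1 above Gata2 at region 42. With 800 bp and with tags without a mismatch it was lost at region 1. Tal1 below Gata2 at regions 2, 5 and 32 was kept in each of these settings.

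**Figure D5:**
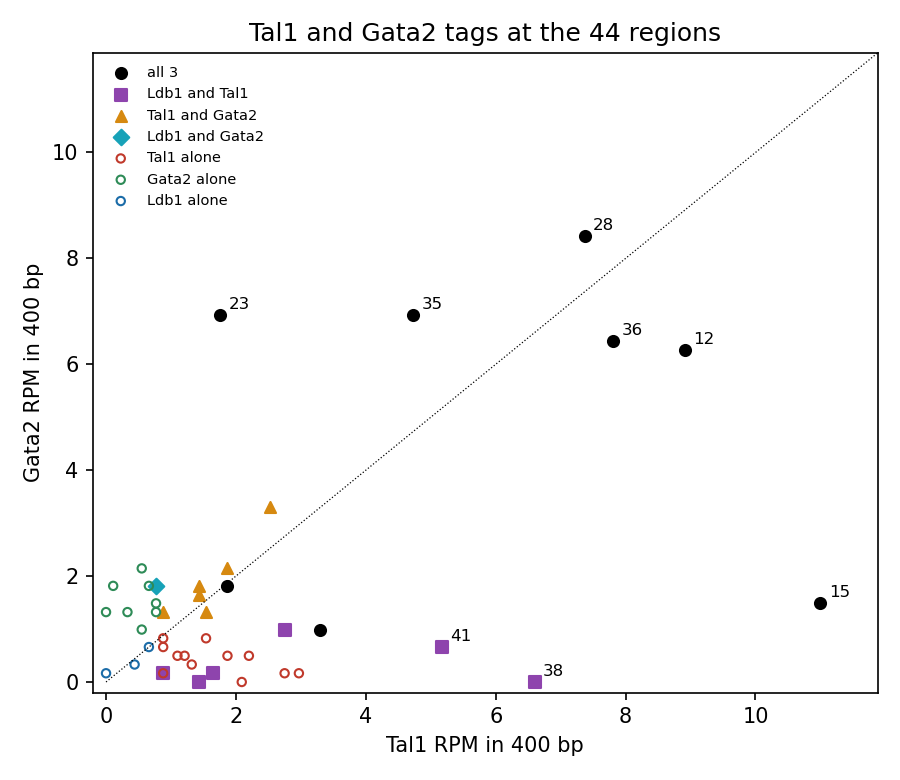
Tal1 RPM (horizontal axis) against Gata2 RPM (vertical axis) in 400 bp around the centre of each of the 44 regions, with 1 point per region, symbols by the proteins called and a dotted line where both are equal. Regions 28, 12 and 36 lie near the line at high levels, regions 23 and 35 above it, and regions 15, 38 and 41 below it.

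Over the 44 regions the median ratio of Ldb1 to Tal1 was 0.823, against 0.590 over all merged regions. For Tal1 to Gata2 it was 1.17 against 1.56, and for Ldb1 to Gata2 it was 0.762 against 0.896. Among the 8 regions with all 3 proteins these medians were 0.830, 1.11 and 1.03, against 0.929, 1.38 and 1.34 over the 6369 such regions of the genome. Gata2 was on this scale somewhat higher relative to both partners in the stretch than at the typical region, a difference in medians without a test.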

How the data were processed

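The authors deposited 4 lists of aligned reads (tags) with position and strand. The build, mm8, comes from the submitters' processing notes; the sources used here name no aligner and no filter. The score column that the authors deposited was not used. A position and strand counted once, however many tags it held, and mitochondrial tags (935, all IgG) were left out. Positions were shifted towards the middle of the fragment by 56 bp (Ldb1), 54 bp (Tal1), 53 bp (Gata2) and 54 bp (IgG).

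Windows of 400 bp, every 100 bp, were tested where they held at least 3 tags, by a one-sided Poisson test. The expected count was the larger of the genome mean of that factor, over 2397.1 Mb of bins with a tag, and scaled IgG in 1, 5 or 10 kb. P-values were Benjamini-Hochberg adjusted over every window with a tag. Touching or overlapping called windows were joined, and regions sharing at least 1 bp were merged. Summits hold most tags within 50 bp. Ratios have 95% exact conditional binomial intervals. Intervals and floors cover counting error only, since each antibody had 1 library. Where repeated tags were kept, PCR copies among them are not independent molecules. Scripts used numpy 2.4.6, scipy 1.17.1 and pandas 2.3.3 and were tested on simulated data.

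Every region of at least 2 proteins was named, with the highest single one of each protein and the 2 nearest misses of each. The position of region 11 was given outside this rule. The stretch and this rule were chosen with earlier results of these data known. The pair tests with the fullest window of each library were added after seeing the data.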

Additional observations from a re-analysis of the deposited data

How the results depend on the processing

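Of 61 repeats of the main counts and ratios under other settings, 52 stayed within the limits set for no change. These limits were wide for counts. The fall from 18 to 12 Ldb1 regions with windows of 800 bp counted as no change. For pairs only the total of calls was compared, not its split. Ldb1 against Tal1, 1 above and 3 below, became 3 above and 1 below with the median ratio as the scale. That too counted as no change, as did Tal1 against Gata2 at 7 above and 9 below in place of 10 and 4. With repeated tags kept, 36 Ldb1 regions were called, Ldb1 differed from Tal1 at 14 regions (4 above, 10 below; 5.595% and 21.55% over the genome) and Ldb1 from Gata2 at 10 (6 above, 4 below; 12.9% and 13.95%), while merged regions of the genome rose to 134016. At a false discovery rate of 0.001 there were 11 Ldb1 regions. At 8-fold or more there were 20 Tal1 and 14 Gata2 regions. With every library thinned to the IgG number there were 19 Tal1 regions, beside 19 of Ldb1 and 19 of Gata2. With tags outside called regions as the scale, Tal1 density over IgG was 2.49 times (2.27 to 2.73). With tags without a mismatch only, Ldb1 differed from Tal1 at 1 region, region 11. Regions with all 3 proteins numbered 6 where all summits had to lie within 200 bp and 12 with the genome mean alone as the expectation. Of the repeats of the folds at the 8 regions with all 3, 211 were still called and 5 were not, namely Gata2 at region 21, under 4 settings, and Ldb1 at region 23, under 1. No paired analysis was possible because each antibody had 1 library.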
